A study of Mus musculus with 16 samples.

Results

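The sodium pump genes described here are 7: the FXYD genes Fxyd2, Fxyd1, Fxyd5, Fxyd6 and Fxyd7, and the pump's beta subunit genes Atp1b1 and Atp1b2. They were looked up by symbol among 22206 tested probe sets of an array series on sorted mouse olfactory cells, 19572 of which carry 1 symbol. Of the 7 genes, 6 had 1 probe set each; the annotation used here names none for Fxyd5, which was not analysed here. The set was chosen on its measured differences between the sorted fractions, so those differences are given for its genes as a description with no test, and only the odor comparisons were tested for them.

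The cells came from the olfactory mucosa of S100a5-tauGFP mice, whose reporter follows S100a5, a calcium-binding protein gene whose transcript rises and falls with the activity of olfactory neurons. The animals were 24 mice of both sexes aged 7 to 12 weeks, kept singly in air chambers for 40 h, and every group carried the reporter. From 26 h on they received 10 s pulses every 20 min of 1-pentanethiol, an odorous thiol, or of filtered air as vehicle. Sorting gave 1 GFP-positive (GFP+) and 1 GFP-negative (GFP-) sample from each of 8 pools of 3 mice, so that the 16 arrays form 4 groups of 4: vehicle GFP-, vehicle GFP+, odor GFP- and odor GFP+. The sample labels name 1-pentanethiol and the series' design text names bourgeonal, and the sample labels were followed.

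The sodium pump (Na,K-ATPase) moves sodium out of and potassium into the cell at the cost of ATP. Its alpha subunit carries out the transport, its beta subunit is a glycoprotein needed to bring the enzyme to the membrane, and small single-span FXYD proteins bind the complex and tune its affinity for ions. In olfactory sensory neurons the gradients it maintains are drawn on by sodium-calcium exchange, which clears calcium from the cilia after an odor response, and by the sodium-coupled uptake of chloride that feeds the transduction current.

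Signal is given as log2 units as deposited, and the negative control probes of each array mark the level of nonspecific signal. Their median lay at 6.06, 6.55, 6.08 and 6.36 on average in the vehicle GFP-, vehicle GFP+, odor GFP- and odor GFP+ arrays. Values across arrays correlated with r of 0.984 to 0.995 within a group and of 0.949 to 0.971 between GFP+ and GFP- arrays. One array stood apart: vehicle GFP+ replicate 2 had a negative control median of 7.28, against 6.22 to 6.38 in the other vehicle GFP+ arrays. The vehicle differences of Fxyd2, Fxyd7, Fxyd1 and Atp1b2 are also given without it. S100a5, the gene that drives the reporter, was higher in GFP+ than in GFP- cells, by 0.87 ± 0.12 (SE) log2 units with vehicle and 0.99 ± 0.12 with odor. Omp, which marks mature olfactory sensory neurons, had means from 18.27 ± 0.09 (SD, n = 4) in vehicle GFP- to 18.35 ± 0.03 in odor GFP+ cells. Both fractions thus held the signal of these neurons. The brightest probe set of an array read 18.71 to 18.85, close to Omp, and whether Omp was compressed there was not tested.

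The 6 measured genes fell into 3 patterns across the sort. Fxyd2 and Atp1b1 were higher on every GFP+ array than on any GFP- array of the same stimulus, and Fxyd6 was lower on every one. Over all probe sets the groups did not overlap for 23.7% with vehicle and 26.8% with odor. At a limma adjusted p under 0.05, GFP+ cells had 9.34% called higher and 11.8% called lower with vehicle, and 11.3% and 11.9% with odor. Since the sort chose the genes, nothing is read from their count against these shares. The median difference of the 6 genes was 0.05 with vehicle and 0.14 with odor, beside 0.11 and 0.13 over all probe sets. Fewer cells of a type and less RNA per cell cannot be told apart in any of these bulk samples.

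**Figure D1:**
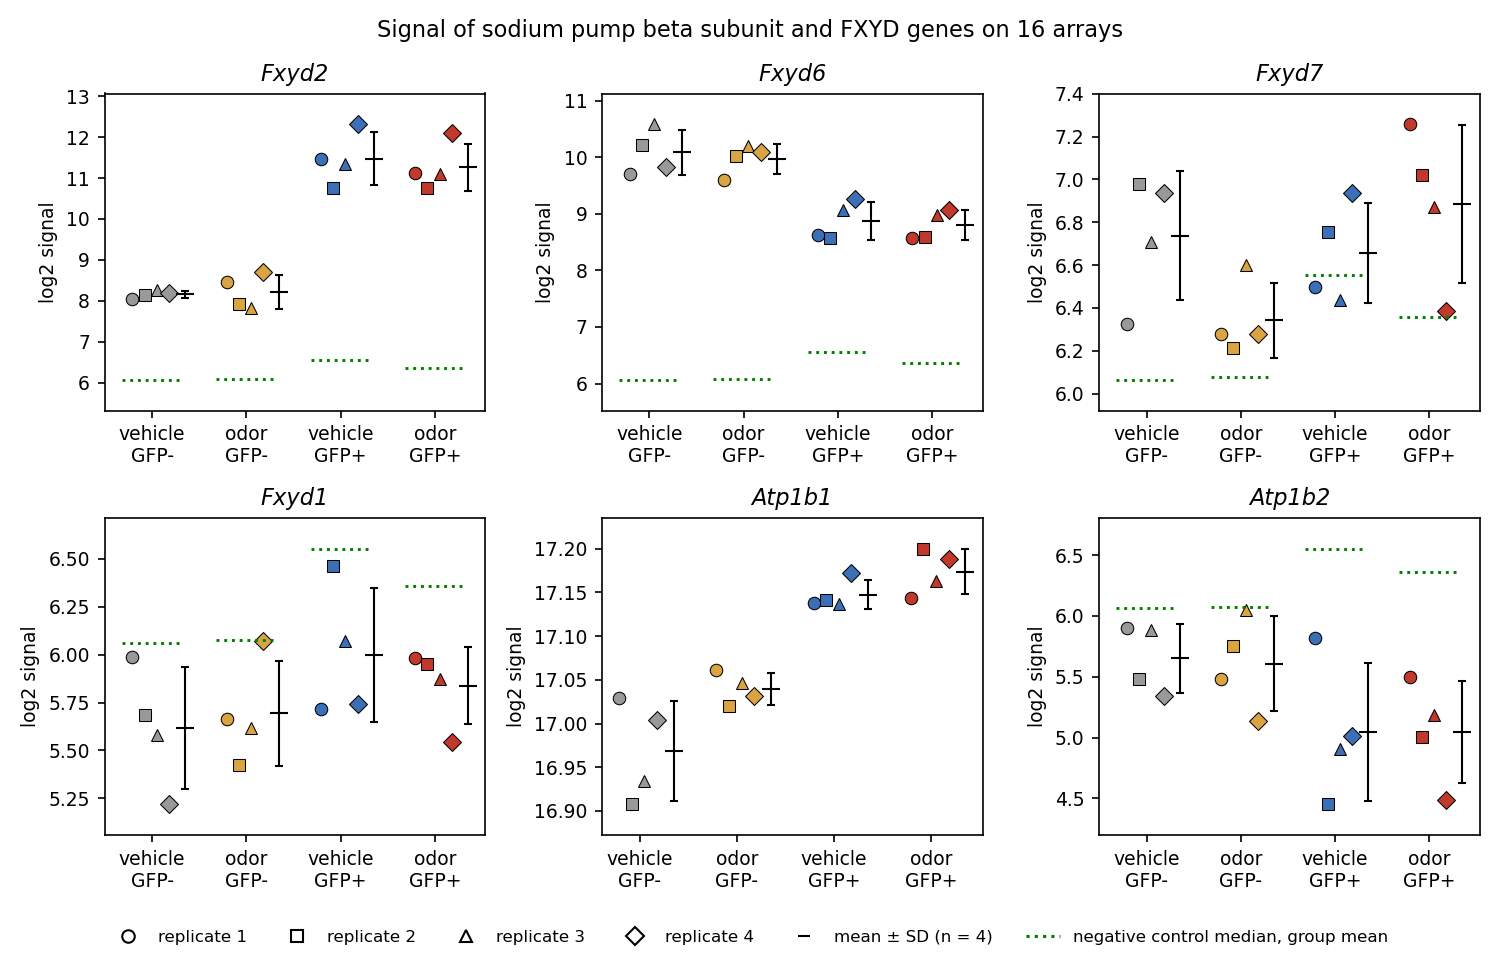
Log2 signal of the 6 measured genes on each of the 16 arrays, by group; marker shapes give the replicate number, bars the mean ± SD of 4 arrays, and dotted green lines the mean negative control median of the group (left out for Atp1b1, where it lies far below the axis). Fxyd2 stands between 7.83 and 8.70 in GFP- cells and between 10.76 and 12.32 in GFP+ cells, Fxyd6 runs the other way, and Fxyd1 and Atp1b2 lie at or below the dotted lines.

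Upstream sequence from RefSeq (mouse build GRCm38.p6) was at hand for 4 of the 7 genes, as 250 bases before the start of transcription. The 2 shown belong to Fxyd6 and Atp1b1, the genes with an entry whose groups did not overlap in the sort. The first lies at chr9:45369935-45370184 on the + strand and the second at chr1:164458356-164458605 on the - strand, both printed 5′ to 3′ toward the gene in lower case, with motif matches in capitals.
Fxyd6: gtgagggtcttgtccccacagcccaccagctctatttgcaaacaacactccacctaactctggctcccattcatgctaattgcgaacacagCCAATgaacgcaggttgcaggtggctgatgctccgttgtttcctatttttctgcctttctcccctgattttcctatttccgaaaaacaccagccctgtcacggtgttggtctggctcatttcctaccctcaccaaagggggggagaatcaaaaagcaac
Atp1b1: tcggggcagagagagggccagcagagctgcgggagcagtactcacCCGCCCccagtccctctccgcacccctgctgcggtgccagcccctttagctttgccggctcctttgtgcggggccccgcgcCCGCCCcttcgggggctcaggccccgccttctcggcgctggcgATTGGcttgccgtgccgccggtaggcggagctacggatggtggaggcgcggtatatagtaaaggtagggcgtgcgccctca
The 2 stretches differ in base composition, with 50.4% G and C for Fxyd6 and 70.4% for Atp1b1. The motifs searched on both strands were the GC box GGGCGG, the CCAAT box, the Olf/EBF site CCCNNGGG, the cyclic AMP response element TGACGTCA and the homeodomain core TAATTA. Atp1b1 held 2 GC boxes, 205 and 124 bases before the start, and 1 CCAAT box at 81 bases, and Fxyd6 held 1 CCAAT box at 159 bases. A GC box stood in 32.7% and a CCAAT box in 33.8% of 32851 starts searched in windows of the same length, so neither is rare. None of the other 3 motifs, present in 11.8%, 1.55% and 4.84% of starts, stood in either window, which says only that these letters are not there. Of the entries not shown, Fxyd5 held 1 Olf/EBF site 24 bases before its start, and Fxyd1 held no match to any motif searched.

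Fxyd2, the gamma subunit known best from the kidney tubule, showed the largest difference of the 6 genes. In the vehicle pools it read 11.46, 10.77, 11.36 and 12.32 in GFP+ cells of replicates 1 to 4, against 8.05, 8.14, 8.25 and 8.19 in GFP- cells. In the odor pools it read 11.13, 10.76, 11.09 and 12.10 in GFP+ cells against 8.45, 7.91, 7.83 and 8.70 in GFP- cells. No GFP- array came within 2 log2 units of a GFP+ array. The SD within the GFP+ groups was 0.64 with vehicle and 0.57 with odor. Within the GFP- groups it was 0.08 with vehicle and 0.42 with odor. The group means differed by 3.32 ± 0.30 (SE) with vehicle, a 9.96-fold higher signal, and by 3.05 ± 0.30 with odor, an 8.27-fold higher signal. In GFP- cells the mean stood above 85.3% of the negative control probes with vehicle and 85.9% with odor, and in GFP+ cells above 97.3% and 97.0%. Without vehicle GFP+ replicate 2 the vehicle difference was 3.55.

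Each pool of mice gave both fractions, so the difference can be read pool by pool. Fxyd2 was higher in GFP+ cells of 8 of 8 pools, by 2.63 to 4.13 with vehicle and by 2.68 to 3.40 with odor, with a median of 3.18. S100a5 was higher in 8 of 8 pools too, by 0.74 to 1.30, from a signal of 15.80 ± 0.07 (SD, n = 4) in vehicle GFP- cells.

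Fxyd6, which encodes phosphohippolin, a family member known from brain, moved the other way. In GFP- cells it read 9.71, 10.21, 10.58 and 9.83 with vehicle and 9.59, 10.01, 10.20 and 10.10 with odor. In GFP+ cells it read 8.62, 8.56, 9.07 and 9.26 with vehicle and 8.58, 8.58, 8.98 and 9.08 with odor. The highest GFP+ array, at 9.26, lay below the lowest GFP- array, at 9.59, so the fractions did not overlap even across stimuli. The difference between GFP+ and GFP- means was -1.21 ± 0.21 with vehicle and -1.17 ± 0.21 with odor. Fxyd6 was lower in GFP+ cells of 8 of 8 pools, with pool differences from -1.65 to -0.58 with vehicle and from -1.43 to -1.01 with odor. With the array medians set equal the differences shrank to -0.86 and -0.84.

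Fxyd7, a regulator found mainly in brain, and Fxyd1, phospholemman, the regulator of the pump in heart and skeletal muscle, gave weak signal. Fxyd7 read 6.32, 6.98, 6.71 and 6.94 in vehicle GFP- cells, 6.50, 6.76, 6.44 and 6.94 in vehicle GFP+ cells, 6.28, 6.21, 6.60 and 6.28 in odor GFP- cells, and 7.26, 7.02, 6.87 and 6.38 in odor GFP+ cells. The vehicle groups overlapped throughout, and in the odor pools 3 of the 4 GFP+ arrays stood above every GFP- array. Its sort difference was -0.08 ± 0.19 with vehicle and 0.54 ± 0.19 with odor, and the sign in the vehicle pools turned in 3 of 25 alternative settings (range -0.31 to 0.27). The vehicle difference was -0.11 without vehicle GFP+ replicate 2. Fxyd1 lay between 5.22 and 6.46 on the 16 arrays, and 1 of them, in vehicle GFP- cells, exceeded its array's negative control median. Its sort differences, 0.38 ± 0.19 with vehicle and 0.14 ± 0.19 with odor, therefore concern signal that cannot be told from nonspecific signal, and the former was 0.23 without vehicle GFP+ replicate 2.

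Atp1b1, the beta subunit gene of widest expression, was among the brightest signals on the arrays and differed little between fractions. In GFP+ cells it read 17.14, 17.14, 17.14 and 17.17 with vehicle and 17.14, 17.20, 17.16 and 17.19 with odor. In GFP- cells it read 17.03, 16.91, 16.93 and 17.00 with vehicle and 17.06, 17.02, 17.05 and 17.03 with odor. Every GFP+ array exceeded every GFP- array, by differences in means of 0.18 ± 0.09 with vehicle and 0.13 ± 0.09 with odor, and 8 of 8 pools went that way, by 0.08 to 0.23. The direction in the vehicle pools depended on the scaling of the arrays: it was -0.050 with the median of the odorant receptor probe sets set equal and 0.53 with the median of all probe sets set equal. The signal stood 1.56 to 1.83 below the brightest probe set of its array. Whether it was compressed there was not tested.

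Atp1b2, the beta subunit gene first described as an adhesion molecule of glia, did not exceed the negative control median on any of the 16 arrays, where it read from 4.45 to 6.05. Its sort difference was -0.61 ± 0.27 with vehicle, or -0.41 without vehicle GFP+ replicate 2, and -0.56 ± 0.27 with odor, with 7 of 8 pools lower in GFP+ cells. The marker genes of ensheathing glia, the glia of the olfactory nerve, had mean levels of 7.27 to 7.68 in vehicle GFP- and 7.42 to 7.98 in vehicle GFP+ arrays; 0 of 6 were called lower with vehicle and 1 of 6 with odor. Of these 6 markers 4 had group means under the negative control median in both vehicle groups.

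**Figure D2:**
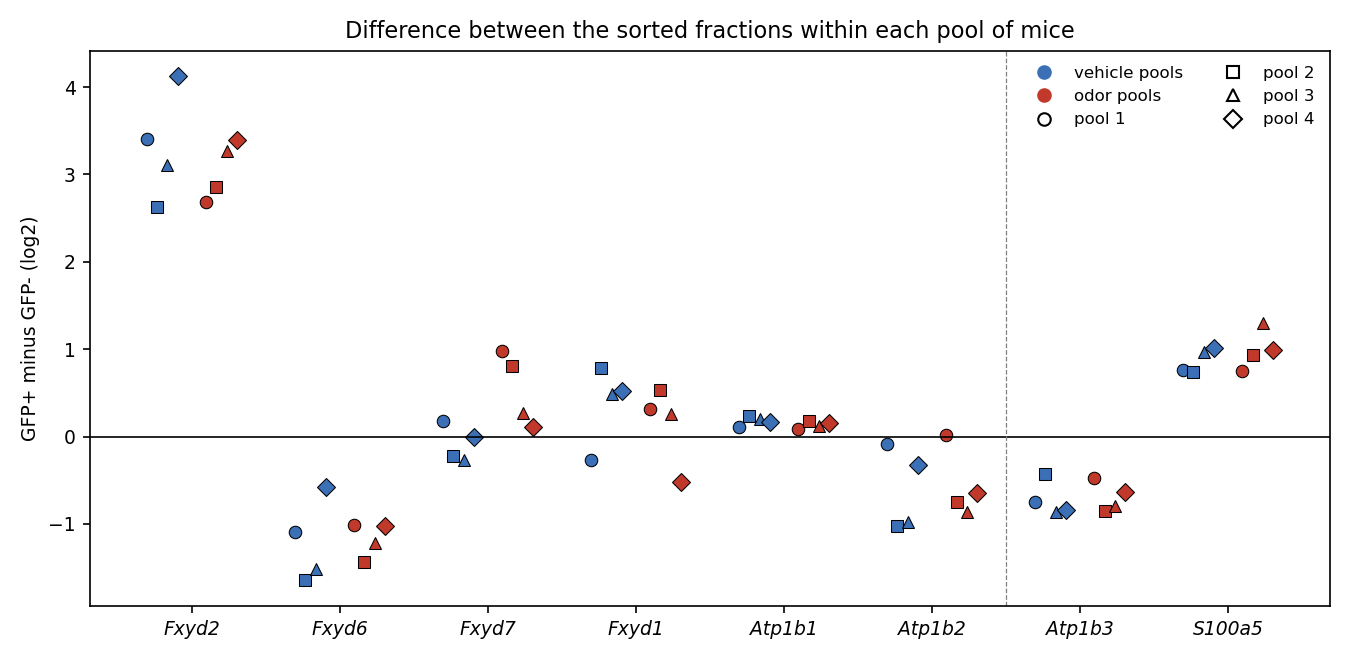
Difference in log2 signal between the GFP+ and the GFP- array of each of the 8 pools, for the 6 measured genes and, right of the dashed line, Atp1b3 and S100a5; colours give the stimulus and marker shapes the pool number. Fxyd2 lies between 2.63 and 4.13 in every pool, Fxyd6 between -1.65 and -0.58, and Atp1b1 close to 0 at 0.08 to 0.23.

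The question put by the odor was whether the thiol changed these genes within a fraction, or changed how far the fractions differ. In GFP+ cells the odor minus vehicle difference was -0.21 ± 0.30 for Fxyd2 (95% interval -0.84 to 0.43, limma adjusted p = 0.922) and -0.07 ± 0.21 for Fxyd6 (-0.52 to 0.37, adjusted p = 0.967). It was 0.03 ± 0.09 for Atp1b1 (-0.16 to 0.22, adjusted p = 0.978). Fxyd7 gave 0.23 ± 0.19 (-0.17 to 0.63, adjusted p = 0.837) and Fxyd1 -0.16 (-0.57 to 0.25, adjusted p = 0.903), and for Atp1b2 the interval ran from -0.57 to 0.57. By limma, 0 of 6 genes passed an adjusted p of 0.05, where 0.0766% of all probe sets were called. An unadjusted p under 0.05 was found for 0 of 6 genes, beside 7.15% of all probe sets. The intervals leave room for changes in Fxyd2 of up to 0.84 log2 units downward, so a moderate change is not excluded with 4 arrays a group.

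In GFP- cells the odor minus vehicle differences of the 6 genes lay between -0.40 and 0.07, all with a limma adjusted p of 0.99997. Fxyd2 gave 0.06 (95% interval -0.57 to 0.70) and Fxyd6 -0.11 (-0.56 to 0.33). The difference furthest from 0 was that of Fxyd7, -0.40 ± 0.19 (-0.79 to 0.004). Of the 6 genes, 0 had an unadjusted p under 0.05, beside 2.61% of all probe sets. At an adjusted p under 0.05, 0.0495% of all probe sets were called.

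**Figure D3:**
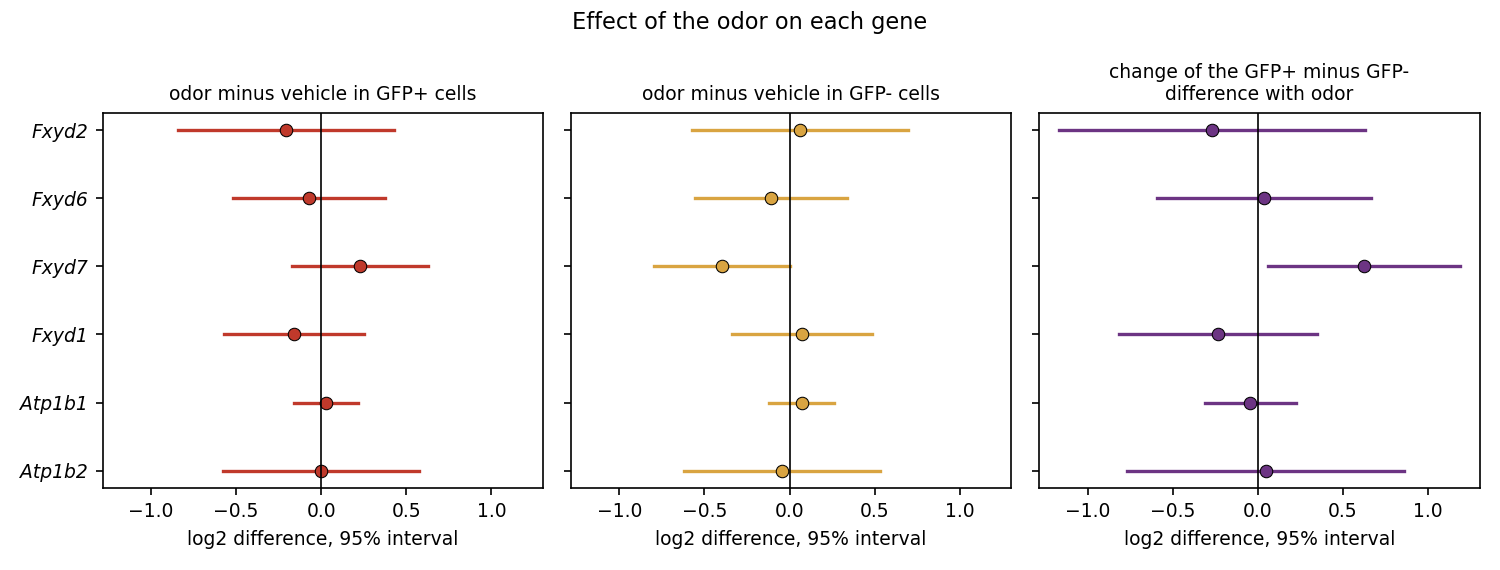
Log2 difference between odor and vehicle in GFP+ cells (left) and GFP- cells (middle), and the change of the GFP+ minus GFP- difference with odor (right), for the 6 measured genes, with 95% intervals from the fit to 16 arrays. All intervals include 0 except that of Fxyd7 on the right, 0.06 to 1.19, which did not pass the adjusted threshold.

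The change of the sort difference with odor was -0.27 ± 0.43 for Fxyd2 (95% interval -1.17 to 0.63) and 0.04 ± 0.30 for Fxyd6 (-0.59 to 0.67). For Atp1b1 it was -0.04 (-0.31 to 0.22). By limma, 0 of 6 genes passed, each with an adjusted p of 0.999, where 0.063% of all probe sets were called. Fxyd7 was the 1 gene with an unadjusted p under 0.05, as were 4.65% of all probe sets: its sort difference was 0.62 ± 0.27 (0.06 to 1.19) larger with odor. In the odor pools Fxyd7 was higher in GFP+ cells of 4 of 4 pools, by 0.11 to 0.98, and in the vehicle pools the pool differences ran from -0.27 to 0.18. After adjustment over all probe sets that change failed the test, and its mean in each of the 4 groups lay within 1 log2 unit of the negative control median.

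Fxyd2 and Fxyd6 are immediate neighbours on chromosome 9, and their opposite values were set beside those of the genes around them. In the RefSeq order of protein-coding genes the stretch runs BC049352, Il10ra, Tmprss13, Fxyd6, Fxyd2, Dscaml1, Cep164 and Bace1. Il10ra, a cytokine receptor gene of leukocytes, fell by 1.86 ± 0.31 with vehicle (limma adjusted p = 0.000239) and by 1.85 ± 0.31 with odor (adjusted p = 0.000261). Tmprss13, a membrane serine protease gene next to Fxyd6, fell by 0.86 ± 0.15 and by 0.68 ± 0.15 (limma adjusted p = 0.000361 and 0.00286), at a mean level of 4.68 that lies below the negative control median. On the far side of Fxyd2, Dscaml1, a neuronal cell adhesion gene, gave 0.46 ± 0.21 and 0.51 ± 0.21 (adjusted p = 0.123 and 0.0860) and did not pass; it passed with vehicle GFP- replicate 3 left out, at 0.68 with vehicle and 0.51 with odor, and with odor GFP- replicate 3 left out, at 0.63 in the odor pools. Dscaml1 also passed with odor with the pool as a fixed block (limma adjusted p = 0.0371). BC049352, at the other end, rose with vehicle by 0.47 ± 0.11 (limma adjusted p = 0.00457) and gave 0.22 ± 0.11 with odor (adjusted p = 0.171), and its call was lost with receptor medians set equal (0.24). Cep164, a centrosomal protein gene, rose with odor by 0.52 ± 0.17 (adjusted p = 0.0365) and gave 0.40 ± 0.17 with vehicle (adjusted p = 0.108). That call was lost without odor GFP+ replicate 1 or 2 (0.39 and 0.52), without odor GFP- replicate 3 or 4 (0.48 and 0.45), and with receptor medians set equal (0.46). Bace1, a protease gene, gave 0.24 ± 0.14 and 0.40 ± 0.14 (limma adjusted p = 0.258 and 0.0514). With odor it passed with the pool as a fixed or a random block (limma adjusted p = 0.0467 and 0.0372). It also passed with odor without odor GFP- replicate 1 (0.46) and without vehicle GFP+ replicate 1 or 2 (0.40 in both). In all, Bace1 passed with odor in 11 of 25 alternatives, among them array medians set equal and quantile normalization. Those 2 settings also called Dscaml1 higher in both sorts and Cep164 higher with vehicle. Array medians set equal called Bace1 higher with vehicle, and a fit of only the groups compared called Dscaml1 higher with odor. No gene of the stretch other than Fxyd2 was over 2 log2 units higher in GFP+ cells.

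The other FXYD genes of the set lie on chromosome 7 in the order Lsr, Fam187b, Fxyd5, Fxyd7, Fxyd1, Lgi4, Fxyd3 and Hpn. Of the other genes there, 0 of 5 (Lsr, Fam187b, Lgi4, Fxyd3 and Hpn) passed a limma adjusted p of 0.05 in either sort, with differences from -0.02 to 0.43. With vehicle GFP+ replicate 2 left out Fam187b passed in the vehicle pools, at 0.67, and with vehicle GFP- replicate 3 left out Fxyd3 did, at 0.41. With array medians set equal Lgi4, Fxyd3 and Hpn passed as higher with vehicle, and Lsr, Fxyd3 and Hpn with odor. That setting called 13003 and 13098 of 22206 probe sets higher.

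**Figure D4:**
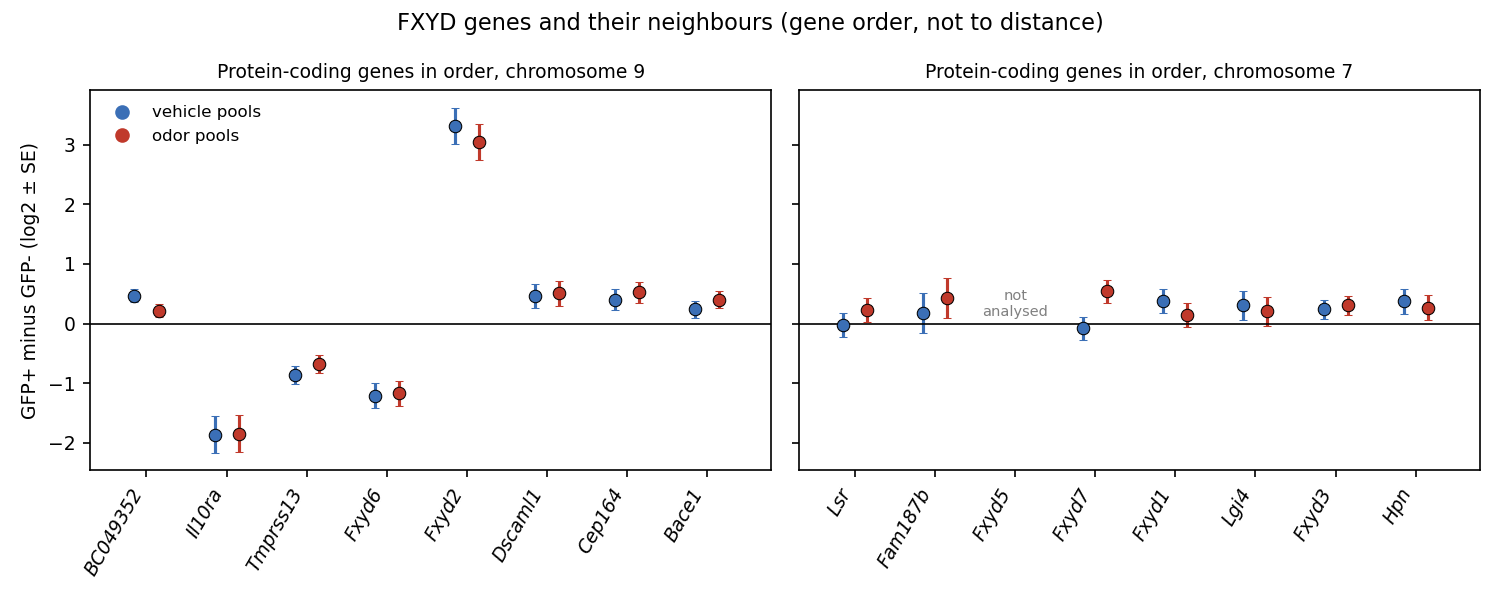
GFP+ minus GFP- difference in log2 units (mean ± SE from the fit to 16 arrays) for the FXYD genes of chromosome 9 (left) and chromosome 7 (right) with their neighbours, placed by gene order and not by distance. Fxyd2 stands at 3.32 and 3.05 between Fxyd6, at -1.21 and -1.17, and Dscaml1, at 0.46 and 0.51; the chromosome 7 genes stay within 1 log2 unit of 0.

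The genes most like Fxyd2 were sought among 19571 other probe sets with 1 symbol by the root mean square difference over the 16 arrays, each probe set centred on its own mean. The nearest 8 were all odorant receptor genes: Olfr1037 at 0.346 log2 units, Olfr849 at 0.360, Olfr1105 at 0.385, Olfr522 at 0.387, Olfr1151 at 0.401, Olfr222 at 0.447, Olfr1100 at 0.447 and Olfr201 at 0.457. Olfr1037 differed between the fractions by 3.38 with vehicle and 2.90 with odor, close to Fxyd2 itself. Among the nearest 50 there were 50 receptors, which make up 5.52% of all genes compared. The first gene of another kind was Taar4, which encodes a trace amine-associated receptor, at rank 52 and 0.615, followed by Ptprn, a gene of dense-core vesicles, at rank 165 and 0.881, and Pcp4l1 at rank 190 and 0.942. With a bar of 2 log2 units in both sorts, set after the values were seen, 109 genes (0.557%) were higher in GFP+ cells, of which 107 were odorant receptors and the other 2 were Fxyd2 and Taar4. The likeness is a description over arrays that share pools and scaling. It rests mainly on the size of the sort difference, on which the set was chosen. The share of receptors among the nearest genes is therefore no test.

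The genes most like Fxyd6 were of a different kind. The nearest was Siglech, a receptor gene of plasmacytoid dendritic cells, at 0.224, followed by Taok3 at 0.240, Gpc2, a glypican of developing neurons, at 0.245, Adpgk at 0.246, Mrtfa at 0.248, Cklf at 0.249, Golim4 at 0.250 and Jpt1 at 0.250. All 8 were lower in GFP+ cells in both sorts, by between 0.87 and 1.30 in size, and none is an odorant receptor. Their direction follows from the measure, which rests mainly on the sort difference here too.

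The sorted fractions also differed in cell type markers, though not for every type. Of sustentacular cell markers 2 of 9 and of Bowman's gland markers 2 of 7 were called lower in both sorts. Horizontal basal cells had 1 of 6 lower with vehicle and 0 with odor, and fibroblasts 0 of 6 in both. Over all probe sets 11.8% were called lower with vehicle and 11.9% with odor. Of 9 endothelial cell and pericyte markers 3 were called lower in both sorts and 1 higher with vehicle. All 10 neutrophil markers were called lower in GFP+ cells in both sorts, with mean levels of 14.88 to 15.35 on vehicle GFP- and 6.73 to 7.83 on vehicle GFP+ arrays. All 7 markers of globose basal and cycling cells and all 7 of lymphocytes were called lower too. So were 7 of 8 markers of ionocyte-like microvillar cells, with mean levels of 9.50 to 10.41 in vehicle GFP- and 7.23 to 7.52 in vehicle GFP+ arrays. Tuft-like microvillar cells had 8 of 8 called lower with vehicle and 7 of 8 with odor. Macrophages had 5 of 8 and erythroid cells 3 of 3 called lower in both sorts. Of the immature neuron markers 5 of 10 were called lower in both sorts, with mean levels of 12.92 to 13.57 against 11.54 to 12.20 with vehicle and 12.72 to 13.50 against 11.55 to 12.08 with odor. Mature neuron markers had mean levels of 16.13 to 16.17 against 16.14 to 16.38 with vehicle and of 16.13 to 16.18 against 16.35 to 16.38 with odor; 1 of 12 was called higher with vehicle and 2 with odor, and 0 lower. These shifts go with the higher Fxyd2, the lower Fxyd6 and every other difference between the fractions, and their part in the results was not tested.

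Beyond the 6 genes, 5 lists of ion transport genes were read in the same comparisons, with 74 of 85 listed genes measured. GFP+ cells had 12 of these genes called higher and 4 lower with vehicle, and 16 and 4 with odor, where over all probe sets 9.34% were called higher and 11.8% lower with vehicle and 11.3% and 11.9% with odor. These shares are the background for each list. The number called higher moved with the scaling: it was 52 and 57 after array medians were made equal, and 2 and 5 after receptor medians were. Between odor and vehicle, limma called 0 of 74 in either fraction and 0 for the change of the sort difference, with 11, 1 and 4 genes under an unadjusted p of 0.05 in GFP+ cells, GFP- cells and for the change, beside 7.15%, 2.61% and 4.65% of all probe sets.

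The list of other sodium pump genes had 12 measured. Of these, 0 were called higher and 1 lower with vehicle, and 1 of each with odor, where all probe sets had 9.34% higher and 11.8% lower with vehicle. With array medians set equal 7 and 9 were called higher and 0 lower. As deposited the list had a median difference of 0.15 and 0.33 beside 0.11 and 0.13 over all probe sets. The lower gene was Atp1b3, the third beta subunit gene, which read 12.59, 12.67, 12.59 and 13.05 in vehicle GFP- and 11.84, 12.24, 11.73 and 12.21 in vehicle GFP+ cells. With odor it read 12.29, 12.75, 12.33 and 12.69 in GFP- and 11.81, 11.90, 11.54 and 12.06 in GFP+ cells. The groups did not overlap, and Atp1b3 fell by 0.72 ± 0.17 with vehicle (limma adjusted p = 0.00402) and by 0.69 ± 0.17 with odor (adjusted p = 0.00569), in 8 of 8 pools. With array medians set equal it did not pass, at -0.37 and -0.36. So the measured beta subunit genes did not share a direction: Atp1b1 was slightly higher in GFP+ cells on the deposited scale, though not with vehicle once receptor medians were set equal (0.072 with odor), and Atp1b3 was lower under all 3 scalings.

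Atp12a, the alpha subunit gene of the non-gastric proton-potassium pump, rose in GFP+ cells of the odor pools by 0.91 ± 0.17 (limma adjusted p = 0.000517) and gave 0.21 ± 0.17 in the vehicle pools (adjusted p = 0.397), at a mean level of 4.92 below the negative control median. The change between the stimuli did not pass (0.70 ± 0.23, adjusted p = 0.891). The other 10 measured genes of the list did not pass in either sort: Atp1a4, Atp1b4, Fxyd3, Fxyd4, Nkain1, Nkain2, Nkain3, Nkain4, Atp4a and Atp4b, with differences from -0.43 to 0.80. Fxyd4, a regulator known from the kidney collecting duct, gave the highest of these, 0.63 ± 0.35 with vehicle and 0.80 ± 0.35 with odor (adjusted p = 0.230 and 0.117).

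The calcium extrusion list, which joins the exchangers driven by the sodium gradient with the calcium pumps driven by ATP, was mixed. Of 15 measured, 2 were called higher and 2 lower with vehicle, and 4 and 2 with odor; with receptor medians set equal 0 and 1 were called higher, and with array medians set equal 11 and 10. Slc8a1, a sodium-calcium exchanger gene, rose by 0.90 ± 0.18 with vehicle (limma adjusted p = 0.000944) and by 1.02 ± 0.18 with odor (adjusted p = 0.000307), the former being lost with receptor medians set equal (0.68, adjusted p = 0.0629). The largest changes of the list were downward: Atp2a3, a calcium pump gene of the endoplasmic reticulum known from blood cells, fell by 3.87 ± 0.34 and by 3.91 ± 0.34 (adjusted p = 1.93e-07 and 1.67e-07). Slc8b1, the mitochondrial sodium-calcium exchanger gene, fell by 1.52 ± 0.20 and by 1.26 ± 0.20 (adjusted p = 1.67e-05 and 0.000134), near the negative control level. Slc24a2, which encodes a potassium-dependent exchanger, passed in the vehicle pools at 0.72 ± 0.22 (adjusted p = 0.0294) and not in the odor pools at 0.47 ± 0.22 (adjusted p = 0.140). That call was lost without vehicle GFP- replicate 1, 2 or 4 (0.74, 0.74 and 0.63) and without vehicle GFP+ replicate 2 or 3 (0.56 and 0.65). The odor pools passed without odor GFP+ replicate 4 (0.65) and with the pool as a fixed block (0.47, limma adjusted p = 0.0322). Slc24a1, of the same family, passed in the odor pools at 0.64 ± 0.18 (adjusted p = 0.0160), though not without odor GFP- replicate 2 (0.58) or odor GFP+ replicate 2 (0.53).

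Among 14 measured genes of sodium-coupled chloride, proton and bicarbonate transport 2 were called higher with vehicle and 1 with odor, with 0 lower in both, beside 9.34% and 11.3% of all probe sets called higher. With receptor medians set equal 1 was called higher in each and 2 lower with vehicle, and with array medians set equal 11 and 12 were called higher. With the pool as a fixed block 1 was called higher with vehicle. Slc4a4, a sodium bicarbonate cotransporter gene, rose by 0.95 ± 0.18 with vehicle and 0.77 ± 0.18 with odor (limma adjusted p = 0.000614 and 0.00370). Slc12a2, the sodium-potassium-chloride cotransporter gene that loads olfactory neurons with chloride and is named here after its values were seen, gave -0.02 ± 0.12 and -0.04 ± 0.12 (adjusted p = 0.923 and 0.844).

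The voltage-gated sodium channel list, which also holds the leak channel gene Nalcn, had 5 of 10 genes called higher and 0 lower in each sort. Nalcn is among the 5 in both. The list had median differences of 0.40 and 0.48, where 9.34% and 11.3% of all probe sets were called higher. With receptor medians set equal 0 and 1 were called higher, with array medians set equal 8 and 9, and with the pool as a fixed block 3 with odor. Scn2a, a channel alpha subunit gene, rose by 0.80 ± 0.16 with vehicle (limma adjusted p = 0.00122) and by 0.48 ± 0.16 with odor (adjusted p = 0.0372). Its odor call was lost without odor GFP- replicate 1, 2 or 4 (0.49, 0.48 and 0.42) and without odor GFP+ replicate 1 or 3 (0.42 and 0.46). It was also lost with the pool as a fixed block (0.48, limma adjusted p = 0.0534). Scn4b, a beta subunit gene, rose by 0.59 ± 0.18 and by 0.77 ± 0.18 (adjusted p = 0.0232 and 0.00395), the former lost without vehicle GFP+ replicate 1, 3 or 4 (0.52, 0.54 and 0.52) and without vehicle GFP- replicate 2 or 3 (0.57 in both). The sodium leak channel gene Nalcn rose by 0.76 ± 0.21 and by 0.65 ± 0.21 (adjusted p = 0.0135 and 0.0314). Its vehicle call was lost without vehicle GFP- replicate 2 (0.64), and its odor call without odor GFP+ replicate 1, 3 or 4 (0.57, 0.62 and 0.54) and without odor GFP- replicate 2 or 4 (0.54 and 0.63).

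Potassium channels, through which the potassium taken up by the pump leaves again, had 3 of 23 called higher and 1 lower with vehicle, and 5 and 1 with odor; with receptor medians set equal 1 was called higher in each, which was Kcnn2, and with array medians set equal 15 and 17. Over all probe sets 9.34% were called higher and 11.8% lower with vehicle. Kcnn2, a calcium-activated channel gene, rose by 0.99 ± 0.11 with vehicle and 1.03 ± 0.11 with odor (limma adjusted p = 3.05e-06 and 1.86e-06) and passed under all 25 alternatives in both. Kcnj2, an inward rectifier gene, rose by 0.65 ± 0.13 with vehicle (adjusted p = 0.00126) and gave 0.25 ± 0.13 with odor (adjusted p = 0.177). Its relative Kcnj16 gave 0.33 ± 0.15 in the vehicle pools (limma adjusted p = 0.129) and passed in the odor pools at 0.58 ± 0.15 (adjusted p = 0.00840), at a mean level of 3.77 below the negative control median. Kcnk1, a background potassium channel gene, fell by 0.93 ± 0.18 and by 1.61 ± 0.18 (adjusted p = 0.000951 and 2.65e-06).

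**Figure D5:**
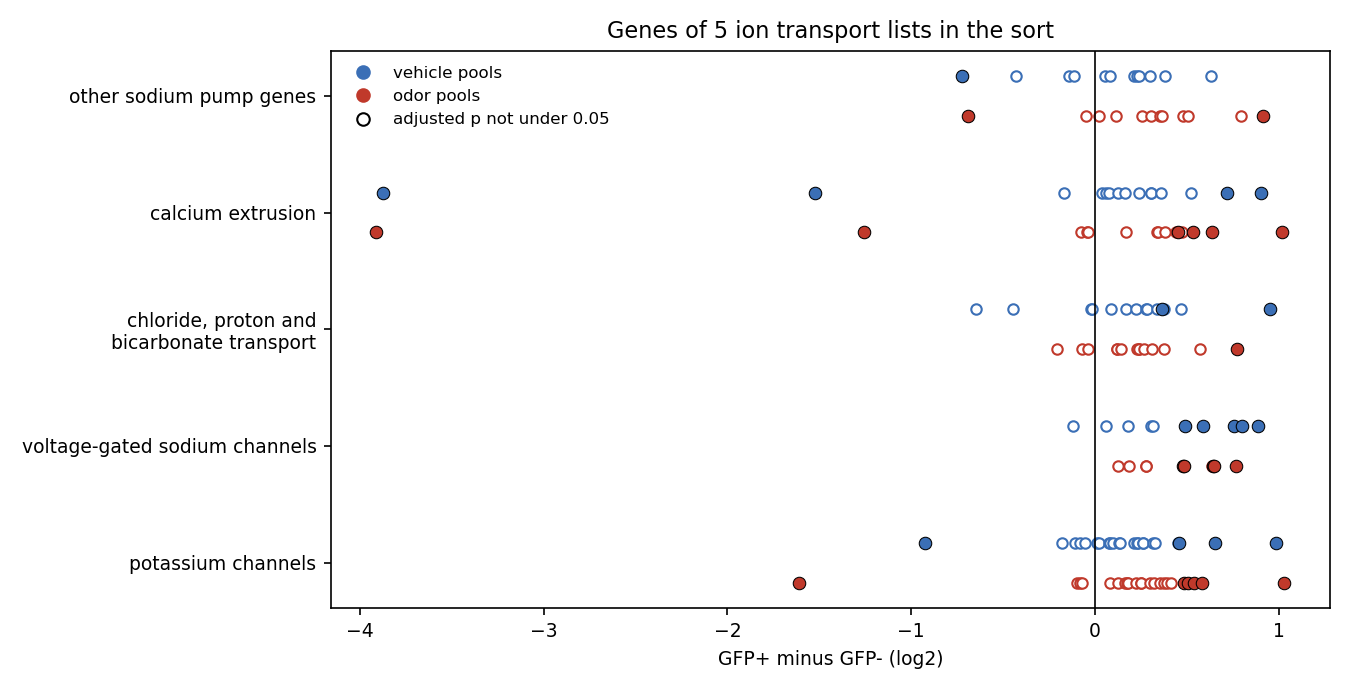
GFP+ minus GFP- difference in log2 units for each measured gene of the 5 ion transport lists, vehicle pools in blue and odor pools in red; filled circles passed a limma adjusted p of 0.05 and open circles did not. No gene of these lists reaches the 3.32 and 3.05 of Fxyd2, and the filled circle furthest left is Atp2a3.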

How the data were processed

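RNA of sorted cells was hybridised to Clariom S mouse arrays, 50 to 100 ng of total RNA per labelling, per the labels' protocols. Per the submitters' processing notes the signals were made with Affymetrix Expression Console; version, summarisation and normalization: not given in the sources used here. Values were deposited as log2 signals by the authors. Their table has 28846 features, with 5222 negative control entries. No scaling or filter was added. Symbols came from the platform annotation supplied with the series, and promoter sequences and gene order from RefSeq.

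A model of 4 group means over the 16 arrays was fitted with lmFit and eBayes (limma 3.58.1, R 4.3.3), with two-sided tests, Benjamini-Hochberg adjustment over 22206 probe sets and a threshold of 0.05. The script was tested on simulated data. Errors of differences are standard errors from the fit. The number of arrays limits the precision. Errors and p-values rest on the spread between the arrays of a group, moderated toward that of all probe sets. For genes of little spread this enlarges the error: Atp1b1 had SDs of 0.02 to 0.06 within groups and a standard error of 0.09.

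The 6 measured genes, the 5 ion transport lists and the 15 marker lists were chosen with earlier results of these data known. Named genes were, per list, up to 3 highest and 3 lowest among those past the threshold in a sort with groups that did not overlap, every other sodium pump gene, neighbours by order, and the 8 genes most like Fxyd2 and Fxyd6. Slc12a2 was added after its value was seen.

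Pairing was checked by correlating deviations from group means: both arrays of a pool share their mice and gave r of 0.0119 to 0.224, and arrays of the same replicate number gave 0.186 to 0.290 in GFP- and 0.0311 to 0.256 in GFP+ cells. The fit has no block. The 25 alternatives, 16 of which leave out 1 array, include a fixed and a random block. The fixed block was the pool for the sorts and the change of the sort difference. For odor against vehicle within a fraction it was the replicate number. The random block was the pool.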

Additional observations from a re-analysis of the deposited data

Results flagged for a closer look

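Among 18 genes (the 6 measured sodium pump genes with the other sodium pump genes) in 4 groups each, 5 of 72 groups had 1 array whose gap to the nearest other exceeded Dixon's 95% critical value, which chance gives in about 1 of 20 groups. Atp1b1 read 17.17 in vehicle GFP+ replicate 4 and 17.14 in the other 3. Atp1b3 read 13.05 in vehicle GFP- replicate 4 and 12.59 to 12.67 in the others. Fxyd3 read 6.10 in vehicle GFP- replicate 3 and 5.34 to 5.45 in the others. Fxyd4 read 7.00 in odor GFP+ replicate 4 and 7.95 to 8.14 in the others. Nkain3 read 4.42 in vehicle GFP+ replicate 4 and 4.38 in the others.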

How the results depend on the processing

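Fxyd2 stayed higher in GFP+ cells under all 25 alternatives (3.04 to 3.66 with vehicle, 2.77 to 3.37 with odor) and Fxyd6 lower (-1.44 to -0.86 and -1.30 to -0.84, where array medians set equal gave -0.86 and -0.84). No alternative called any of the 18 odor differences of the 6 genes; Atp1b2 and Fxyd1 had no value under the filter on low signal. With receptor medians set equal Atp1b1 turned to -0.050 in the vehicle pools, and with array medians set equal Slc12a2 turned to 0.33 and 0.29. The cause was not tested.

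Scaling moved the median of all differences from 0.11 and 0.13 (vehicle and odor pools) to 0.46 and 0.46 with array medians set equal, which called 15011 and 15107 probe sets against 4691 and 5167. It moved it to -0.12 and 0.07 with receptor medians set equal, which called 3279 in the odor pools, 17 for odor in GFP- cells and 22 for the change of the sort difference. The split of higher against lower calls was 2074 to 2617 and 2518 to 2649 as deposited, 13003 to 2008 and 13098 to 2009 with array medians set equal, 515 to 3237 and 865 to 2414 with receptor medians set equal, and 3665 to 2501 and 3594 to 2521 after quantile normalization. Ion transport genes called higher numbered 52 and 57 with array medians set equal, 2 and 5 with receptor medians set equal, 10 in the odor pools with the filter on low signal, and 7 in the vehicle pools with only the groups compared fitted, against 12 and 16. Leaving out 1 array gave 6 to 13 in the vehicle pools, the lowest without vehicle GFP- replicate 2, and 7 to 21 in the odor pools, with 7, 8 and 9 without odor GFP- replicate 2, odor GFP+ replicate 1 and odor GFP- replicate 4. For odor against vehicle over all probe sets it gave 8 to 17 calls in GFP+ and 7 to 15 in GFP- cells, against 17 and 11; array weights gave 19 in GFP- cells.

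In GFP+ cells the fixed replicate block left 4 calls for the odor and a fit of only the groups compared left 6, against 17. For the sorts the fixed block was the pool. It changed the odor pool calls of Scn2a, Slc24a2, Dscaml1 and Bace1 and the counts of 2 ion transport lists, as given above. The pool as a random block (correlation 0.089) changed the odor pool call of Bace1. Neither changed another call of a named gene in the sorts. With 4 arrays a group, odor differences within the intervals given are not excluded, and the size that could have been detected was not computed.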

Other observations

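Within the GFP+ groups, Fxyd2 had the same order of replicate numbers with both stimuli: number 4 was highest (12.32 with vehicle and 12.10 with odor) and number 2 lowest (10.77 and 10.76). Fxyd6 was also highest in number 4 of both GFP+ groups (9.26 and 9.08). The labels do not say that a replicate number marks a shared day or litter, so these are given as values. In GFP- cells Fxyd2 with vehicle had the narrowest spread, from 8.05 to 8.25, and with odor it ran from 7.83 to 8.70.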
